A study of Mus musculus with 2 samples.

Results

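The genes described here are 10 members of the iron and hepcidin axis of the mouse liver: Hamp, Hamp2, Bmp6, Tfr2, Hfe, Tfrc, Trf, Slc40a1, Fth1 and Ftl1. They were taken by symbol from a single-cell matrix of 32285 genes, all 10 had a row, and all 10 had UMIs in both libraries. UMIs are unique molecular identifiers that mark single cDNA molecules. The study profiled liver cells from 1 sample labelled Cebp KO and 1 labelled Cebp WT. In the knockout line, floxed Cebpa alleles (Cebpa fl/fl) are removed in hepatocytes by a Cre recombinase under the albumin promoter, which is active in hepatocytes. The study used male mice and backcrossed its lines to C57BL/6N. The sources used here do not give the age of these mice or how many livers went into a sample. Both samples shared 2 weeks of HFCFD, a diet high in fat, cholesterol and fructose, recorded with a figure of 40% for both. For both, liver tissue was also perfused and digested, followed by Percoll centrifugation and 10x Genomics 3′ capture, with a lane for each sample.

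The matrix holds both samples, and barcodes end in 1 or 2. No label ties either ending to a sample, so the libraries are called library 1 and library 2 throughout, and neither was given a genotype. Values of the 2 libraries compare these libraries and not the genotypes. There was 1 library of each kind, no test was possible and no p-value is given. The 95% intervals are exact Poisson intervals for levels and exact binomial intervals for shares, and they cover counting error only.

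Hepcidin, the peptide encoded by Hamp, is secreted by hepatocytes and binds ferroportin, the iron exporter encoded by Slc40a1, which is then degraded. Iron that macrophages recover from old red cells leaves them through ferroportin, binds transferrin in plasma and enters cells through transferrin receptors. Hepatocytes raise hepcidin when BMP6 and BMP2 from liver endothelium act on their BMP receptors, when HFE and transferrin receptor 2 sense loaded transferrin, and when IL-6 acts through STAT3. Inside cells, iron regulatory proteins bind stem-loops called iron-responsive elements (IREs) in the mRNAs of ferritin, ferroportin and transferrin receptor 1.

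Hamp lies on the minus strand of chromosome 7 from 30942368 to 30944032 and Hamp2 on the same strand from 30922372 to 30924681 (GRCm38, GENCODE vM21), with 17686 bases between them. Both have 3 exons. The 250 bases before each RefSeq start are shown because the paralogs gave different patterns between the libraries. The RefSeq start of Hamp2 lies downstream of the GENCODE one, so its window falls inside the GENCODE gene. Capitals mark 2 motifs from the hepcidin literature: GGCGCC, the core of the BMP-responsive element, and TTCNNNGAA, a STAT site. The windows are chr7:30944030-30944279 for Hamp and chr7:30924182-30924431 for Hamp2, both minus strand, from RefSeq on GRCm38.p6.
Hamp: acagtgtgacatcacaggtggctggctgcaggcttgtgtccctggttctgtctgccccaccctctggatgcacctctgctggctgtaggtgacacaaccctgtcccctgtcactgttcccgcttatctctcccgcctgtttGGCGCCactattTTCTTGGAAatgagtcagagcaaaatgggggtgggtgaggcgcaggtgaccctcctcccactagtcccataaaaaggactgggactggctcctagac
Hamp2: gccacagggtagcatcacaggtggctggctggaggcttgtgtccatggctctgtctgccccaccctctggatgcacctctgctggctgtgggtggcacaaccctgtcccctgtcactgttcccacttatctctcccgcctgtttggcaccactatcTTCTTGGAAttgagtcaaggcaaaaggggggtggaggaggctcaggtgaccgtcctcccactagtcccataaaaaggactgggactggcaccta
The STAT letters stood in both windows, at bases 154 to 162 of the Hamp window and 157 to 165 of the Hamp2 window. The GGCGCC letters stood at bases 142 to 147 of the Hamp window and were not found in the Hamp2 window, where the aligned stretch carried G145A (the Hamp base, its position from the 5′ end of the Hamp window, and the Hamp2 base). Both strands were searched. Of 32851 RefSeq promoter windows, 9.59% held GGCGCC and 7.02% held TTCNNNGAA. The Tfrc window also held GGCGCC, at bases 162 to 167. TTNNGNAA, half-sites of C/EBP factors facing each other, was in 36.8% of windows, those of Fth1, Ftl1 and Tfr2 included, and in neither hepcidin window. The site in the Spp1 promoter through which the paper reports repression by CEBPA does not match this C/EBP pattern. The absence of the pattern from 250 bases therefore cannot show that a promoter lacks C/EBP sites. The windows of the paralogs shared 91.9% of aligned bases, and the longest coding transcripts of 410 and 424 bases shared 75.2%. The last 150 bases of those transcripts, from which 3′ tags come, shared 86.0%. Because of this likeness, reads can be lost or split between Hamp and Hamp2, so their counts carry an uncertainty that the intervals do not cover. Another annotated gene, Gm44662, overlaps both.

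Stem-loops with an IRE's shape are shown because they are the shared element of the uptake, storage and export genes. The search asked for a CAGTG loop, an upper stem of 5 pairs and a bulged C, and the 27 bases of each match are given with the loop in capitals. In all, 4 matches stood in the 3′ UTR of Tfrc (exon 19, plus strand), and 1 each in the 5′ UTR of Slc40a1 (exon 1, minus strand), Fth1 (exon 2, plus strand) and Ftl1 (exon 1, minus strand), on GENCODE transcripts of GRCm38. For each member the transcript with the longest coding sequence was searched, and exon numbers are those of that transcript and can differ in others.
Tfrc, chr16:32631220-32631246: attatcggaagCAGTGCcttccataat
Tfrc, chr16:32631599-32631625: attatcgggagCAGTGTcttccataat
Tfrc, chr16:32631664-32631690: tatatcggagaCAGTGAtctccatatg
Tfrc, chr16:32631711-32631737: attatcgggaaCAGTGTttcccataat
Slc40a1, chr1:45925466-45925492: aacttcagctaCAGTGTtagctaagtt
Fth1, chr19:9982733-9982759: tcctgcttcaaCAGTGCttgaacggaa
Ftl1, chr7:45459780-45459806: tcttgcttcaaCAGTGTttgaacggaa
All 5 lower-stem positions paired in the sites of Tfrc and Slc40a1, and 4 of 5 in the ferritin sites. Of 21901 genes, 205 (0.936%) held a match, and 22 (0.1%) held one with at least 4 lower pairs. The other 6 members had no match.

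Cells were put in classes by marker genes, none of which is a member, and levels are UMIs of a gene scaled to 1e6 UMIs (CPM) summed over a class. Because the chemistry tags the 3′ end, a transcript gives 1 tag whatever its length. The libraries held 17313 and 15003 barcodes with 60048646 and 52355243 UMIs, and 81 barcodes were shared. Median mitochondrial share was 4.07% and 41.3%, and 11617 and 6088 cells passed the limits of at least 500 UMIs and at most 25% mitochondrial UMIs. Hepatocyte-like cells of at least 5000 UMIs, called deep here, numbered 662 and 552. The libraries also held 317 and 509 cells of the Kupffer-like class, 133 and 152 of the endothelial-like class and 326 and 134 of the erythroid-like class. The summed hepatocyte markers reached 111061 and 116467 CPM in deep hepatocyte-like cells, but none of the 16 was among the 10 genes of highest fold, which were led by mitochondrial and metabolic genes. Kupffer markers took 8 of the 10 leading places in Kupffer-like cells. Slc40a1 was also among those 10 in library 2. Haemoglobin genes led the erythroid-like cells, whose 13 markers summed to 632891 and 657240 CPM. Cebpa was at 1.19 (18 UMIs) and 109 CPM in deep hepatocyte-like cells and at 143 and 167 CPM in Kupffer-like cells. A further 8395 and 3288 droplets held hepatocyte markers at under 5000 UMIs, with a median of 1158 and 1235 UMIs. They carried 44.1 and 56.2 Alb UMIs each, against 50.4 and 49.8 in T-like cells, so shallow hepatocytes and droplets with only free hepatocyte RNA cannot be told apart, and the levels below are from deep cells.

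Each member had its highest level, among the 4 classes of the rule, in the same class in both libraries. Hamp, Hamp2, Tfr2, Trf, Fth1 and Ftl1 were highest in deep hepatocyte-like cells, Slc40a1, Hfe and Tfrc in Kupffer-like cells, and Bmp6 in endothelial-like cells. Of 9 members tested, meaning at 20 CPM or more in either class, 3 were 2-fold or more higher in Kupffer-like than in deep hepatocyte-like cells in both libraries (Slc40a1, Hfe, Tfrc). The share of all genes tested was 50.7% in library 1 and 48.7% in library 2. Hamp, Hamp2, Trf and Tfr2 were 2-fold or more lower there, against 18.3% and 18.5% of all genes. The median log2 ratio of the members was -0.81 and -0.74, and that of all genes 1.03 and 0.93. In endothelial-like cells, Slc40a1, Hfe and Bmp6 were higher of 9 tested (all genes 54.3% in both) and 6 were lower (14.3% and 14.8%), the ferritin genes joining the 4 above. In erythroid-like cells 0 of 8 were higher (3.26% and 4.84%) and the same 6 were lower (80.5% and 71.4%), in cells where haemoglobin took most UMIs. The latter calls rest on the total used: over a total without haemoglobin genes, 0 of 8 and 0 of 9 members were lower (2.87% and 5.43% of all genes), and 0 and 2 (Slc40a1 and Hfe in library 2) were higher (15.4% and 30.4%). Erythroid-like Ftl1 then stood at 3795 and 3098 CPM, above deep hepatocyte-like cells in library 1, and in library 2 with an interval (2854 to 3358) that held the hepatocyte value.

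**Figure D1:**
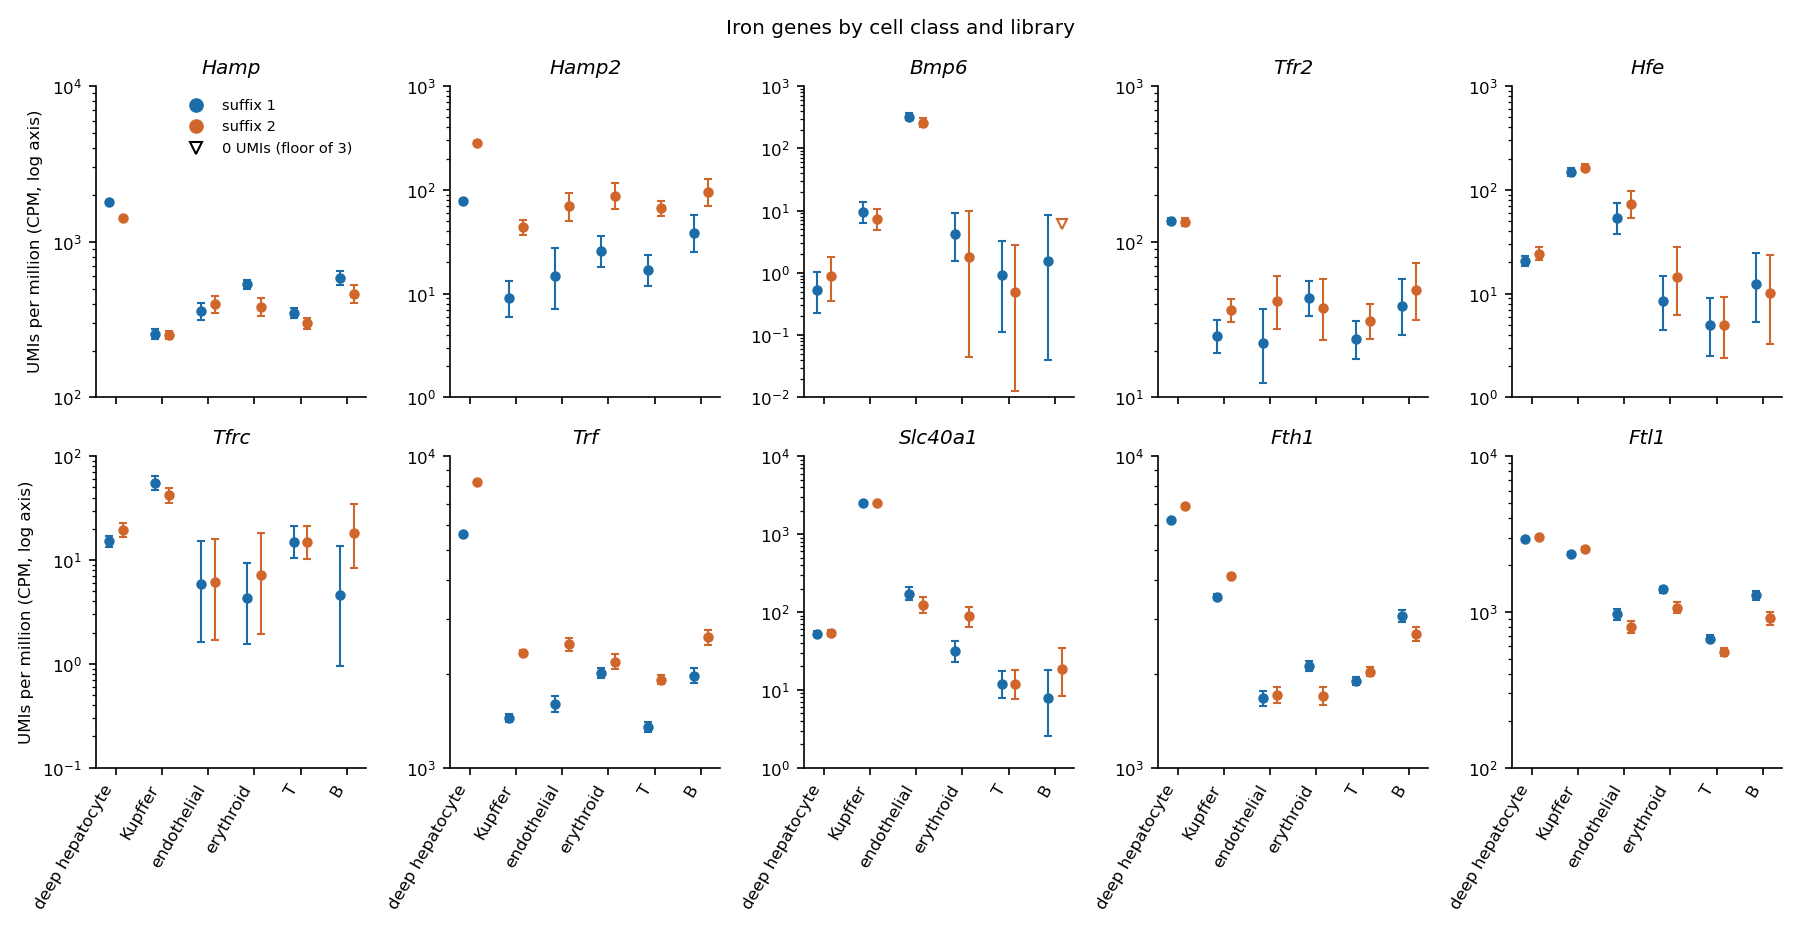
Level of each member (CPM, log axis) in the cell classes, with library 1 and library 2 as separate points and bars for the exact Poisson 95% interval. A triangle marks a class with 0 UMIs, drawn at the level of 3 UMIs. Slc40a1 stood at 2541 and 2504 CPM in Kupffer-like cells, and Bmp6 at 322 and 259 CPM in endothelial-like cells.

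Hamp, which encodes hepcidin, stood in deep hepatocyte-like cells at 1806 CPM (1785 to 1828) in library 1 and 1418 CPM (1392 to 1445) in library 2. The ratio of library 2 to library 1 was 0.785 (0.768 to 0.803). Hamp was the lower in library 2 in these cells, but in the shallow droplets the ratio was 0.95 and in Kupffer-like cells 0.991. In Kupffer-like, endothelial-like and erythroid-like cells Hamp stood at 254 and 252, 356 and 396, and 532 and 383 CPM. Among lymphocytes, which should lack hepcidin, T-like cells stood at 349 and 300 CPM and B-like cells at 583 and 461 CPM. Kupffer-like cells were below both, and endothelial-like cells lay between them, with an interval overlapping that of T-like cells in library 1 and that of B-like cells in library 2. Of deep hepatocyte-like cells 98.2% and 98.6% held a Hamp UMI (median depth 24303 and 12601 UMIs), and 60.4% and 60.9% did after every cell was thinned to 1000 UMIs. The thinned share in T-like cells was 28.7% and 29.4% (median depth before thinning 4644 and 4227 UMIs). Deep hepatocyte-like cells held 48.8% and 44.9% of all Hamp UMIs in kept cells and the shallow droplets 40.4% and 36.0%.

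Hamp varied widely from cell to cell. Among deep hepatocyte-like cells it ran from 0 to 14178 CPM in library 1, with a median of 999 CPM, and from 0 to 8176 CPM in library 2, with a median of 1066 CPM. The medians were thus in the reverse order of the summed levels. The 10% of cells with most Hamp UMIs held 44.9% and 42.2% of them. That share depends on cell depth and on how many UMIs a gene has. It was 23.4% and 25.1% for Trf, and 52.0% and 59.6% for Tfrc, a gene of few UMIs. The variance of Hamp over cells was 68.0 and 25.2 times that of counting alone, against 35.7 and 28.4 for Hamp2, 16.4 and 14 for Trf, 13.5 and 11.9 for Fth1, 12.6 and 10.3 for Ftl1, and 1.11 to 1.64 for Tfr2, Hfe, Tfrc and Slc40a1. This measure grows with a gene's level.

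**Figure D2:**
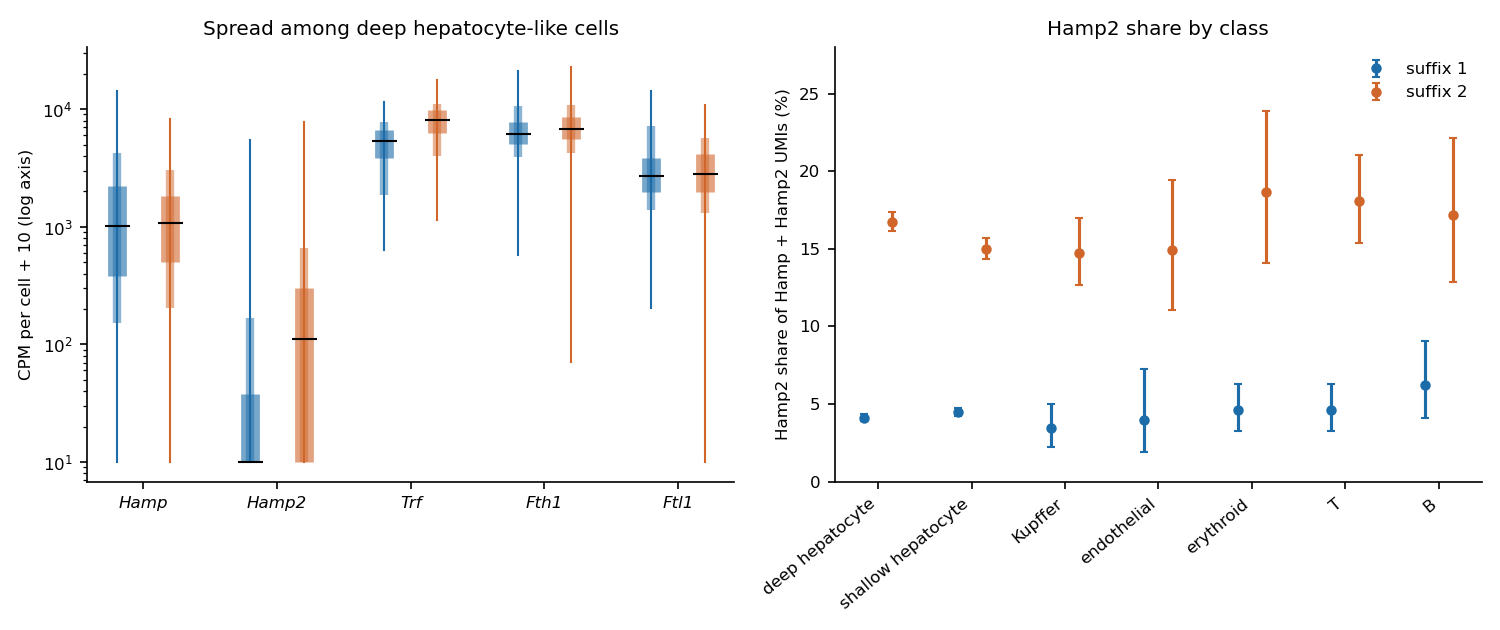
Left, CPM per deep hepatocyte-like cell (CPM plus 10, log axis) for 5 members in each library, where the thin line runs from the lowest to the highest cell, thicker lines cover the middle 80% and 50% of cells, and the black mark is the median. Right, share of Hamp2 in Hamp and Hamp2 UMIs (percent, with exact binomial 95% interval) in 7 classes, where all classes of library 2 lie above all classes of library 1.

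Hamp2, the paralog beside Hamp, stood in deep hepatocyte-like cells at 77.4 CPM (73.0 to 81.9) in library 1 and 285 CPM (274 to 297) in library 2. The ratio was 3.69 (3.44 to 3.96). Hamp2 was the 1 member of 8 tested that differed 2-fold or more between the libraries in these cells, where 2.24% of all genes were 2-fold or more higher in library 2 and 2.26% lower. It was also higher in library 2 in Kupffer-like cells (9.06 and 43.5 CPM, 1 of 9 members, with 0.686% of genes higher and 0.773% lower), in endothelial-like cells (14.8 and 69.4 CPM, 1 of 9, with 2.54% higher and 2.37% lower) and in erythroid-like cells (25.7 and 87.7 CPM). T-like cells, which should lack it, stood at 16.9 and 66.1 CPM, so the level outside hepatocytes moved with the hepatocyte level. Hamp2 made up 4.11% (3.88 to 4.34) of Hamp and Hamp2 UMIs in deep hepatocyte-like cells of library 1 and 16.8% of those in library 2. The share was 3.44% to 6.23% over 7 classes of library 1 and 14.7% to 18.6% over the same classes of library 2, without overlap.

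Few cells carried most of Hamp2. A UMI was found in 26.1% of deep hepatocyte-like cells of library 1 and in 66.8% of library 2, although the cells of library 1 were the deeper. T-like cells held one in 8.55% and 25.2%, and after thinning the shares were 4.68% and 21.9% in deep hepatocyte-like and 1.66% and 6.51% in T-like cells. The median cell was at 0 CPM in library 1 and at 101 CPM in library 2, and the highest cells were at 5493 and 7721 CPM. The 10% of cells with most Hamp2 UMIs held 88.4% and 66.5% of them, a share that also depends on cell depth and on a gene's number of UMIs. Over deep hepatocyte-like cells, Hamp and Hamp2 had a Pearson correlation of 0.113 (n = 662) and 0.005 (n = 552) and a Spearman correlation of 0.056 and 0.149, given as a description of cells that share a library.

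Bmp6, a ligand that induces hepcidin, stood in endothelial-like cells at 322 CPM (281 to 368, 217 UMIs) in library 1 and 259 CPM (221 to 301, 168 UMIs) in library 2. The ratio of 0.804 had an interval of 0.654 to 0.988. In deep hepatocyte-like cells it was at 0.529 and 0.874 CPM, from 8 and 7 UMIs, and in T-like cells at 0.913 and 0.501 CPM. Kupffer-like cells were at 9.41 and 7.30 CPM, and a class gated on monocyte and dendritic markers but led by Siglech was at 34.0 and 13.0 CPM. Endothelial-like cells held 55.1% and 56.4% of all Bmp6 UMIs in kept cells. A UMI was found in 55.6% and 53.9% of them, and in 26.8% and 20.1% after thinning. The annotated genes 4930579J19Rik and Txndc5 overlap Bmp6.

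Tfr2, the transferrin receptor that senses iron in hepatocytes, was at 137 CPM (131 to 143) and 134 CPM (126 to 142) in deep hepatocyte-like cells. The ratio was 0.981 (0.911 to 1.06), so the libraries did not differ beyond counting error. Kupffer-like cells were at 24.8 and 36.2 CPM and T-like cells at 23.7 and 31.1 CPM, and these classes did not differ beyond their intervals. Per 1000 UMIs of Alb, the albumin mRNA that marks free hepatocyte RNA in other cells, Tfr2 was at 3.66 and 3.28 in deep hepatocyte-like cells and at 2.45 and 2.99 in T-like cells.

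Hfe, the partner of transferrin receptors in iron sensing, had the other order. It was at 149 CPM (135 to 163) and 163 CPM (150 to 176) in Kupffer-like cells, at 53.4 and 72.5 CPM in endothelial-like cells, and at 20.8 and 24.3 CPM in deep hepatocyte-like cells. The Kupffer-like level was 7.14 and 6.69 times, and the endothelial-like level 2.57 and 2.98 times, the hepatocyte level. T-like cells were at 5.02 and 5.01 CPM, below hepatocytes in both libraries. Erythroid-like cells were at 8.55 CPM (4.42 to 14.9) and 14.3 CPM (6.18 to 28.2), below hepatocytes in library 1 and overlapping them in library 2. That order also rests on the total, since without haemoglobin genes the values were 23.3 and 41.7 CPM. Per 1000 Alb UMIs the hepatocyte value was 0.557 and 0.595 and the T-like value 0.519 and 0.483. Kupffer-like cells held 35.1% and 47.0% of all Hfe UMIs.

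Tfrc, which encodes transferrin receptor 1, was at 55.8 CPM (47.5 to 65.1) and 41.9 CPM (35.6 to 49.1) in Kupffer-like cells. Deep hepatocyte-like cells were at 15.1 and 19.5 CPM, and T-like cells at 15.1 and 15 CPM. The Siglech-led class was higher than all 4 classes of the rule, at 175 and 137 CPM. Erythroid-like cells, whose precursors take up much iron through this receptor, held only 6 and 4 Tfrc UMIs, or 4.28 CPM (1.57 to 9.30) and 7.16 CPM (1.95 to 18.3). Over a total without haemoglobin genes they were 11.6 CPM (4.27 to 25.3) and 20.9 CPM (5.68 to 53.4), below and above the T-like value, so no order against T-like cells can be read from these few UMIs. The 2 libraries differed in opposite directions in Kupffer-like cells (ratio 0.752, 0.599 to 0.943) and in deep hepatocyte-like cells (ratio 1.29), an untested pair of values.

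Trf, the plasma iron carrier transferrin, stood in deep hepatocyte-like cells at 5645 CPM (5607 to 5683) in library 1 and 8251 CPM (8188 to 8314) in library 2. The ratio was 1.46 (1.45 to 1.48), below the 2-fold mark. Library 2 was also the higher in Kupffer-like cells (1443 and 2341 CPM), endothelial-like cells (1606 and 2490 CPM) and T-like cells (1355 and 1917 CPM). Per 1000 Alb UMIs, Trf stood at 151 and 202 in deep hepatocyte-like cells and between 138 and 178 in library 1 and 180 and 218 in library 2 over all classes. Its UMIs outside hepatocytes thus kept nearly the ratio to Alb that hepatocytes had. Hamp ran wider, from 25.1 to 63.8 UMIs per 1000 Alb UMIs over the classes of library 1 and from 23.2 to 49.4 over those of library 2. Deep hepatocyte-like cells were at 48.4 and 34.7, with Kupffer-like (31.4 and 23.2) and T-like cells (36.1 and 28.9) below them in both libraries. The intervals of NK-like cells in library 1 (47.9), and of endothelial-like, erythroid-like, B-like, neutrophil-like, NK-like and stellate-like cells in library 2 (31.0 to 40.1), held the hepatocyte value. The annotated gene Gm20425 overlaps Trf.

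**Figure D3:**
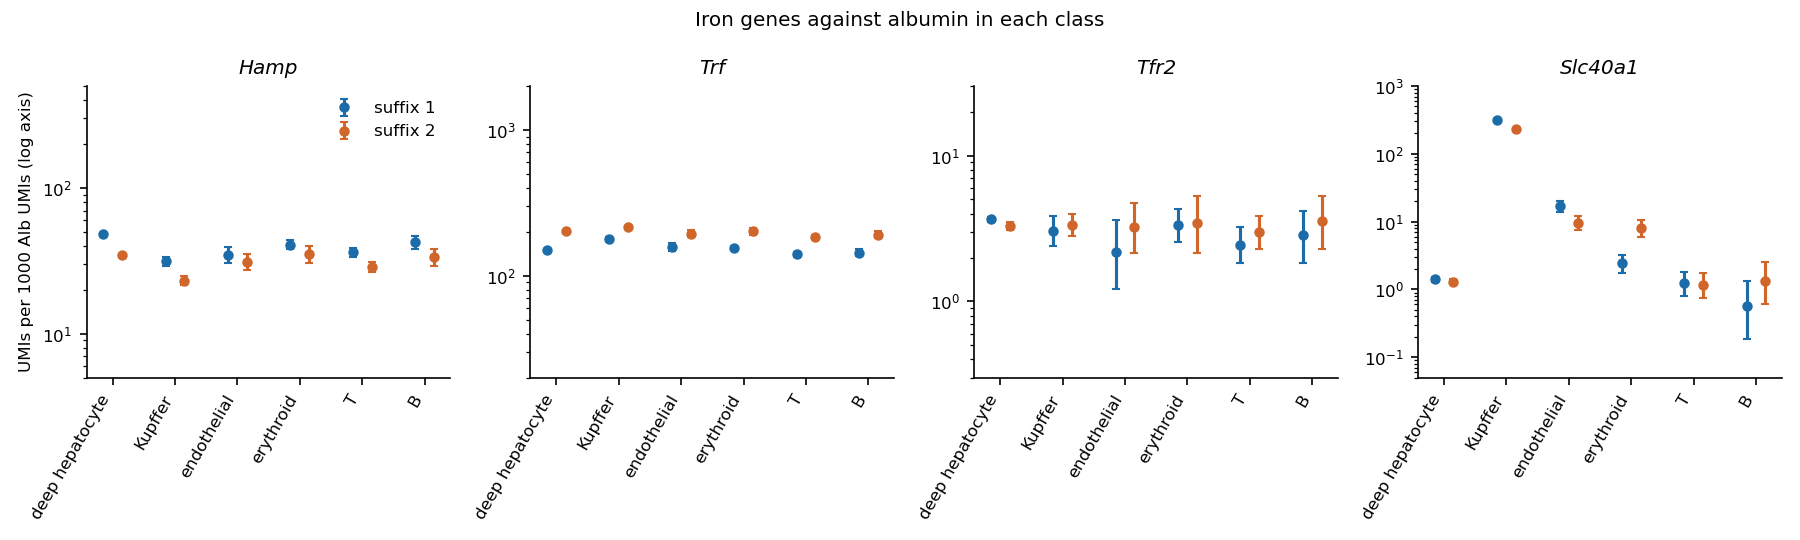
UMIs of Hamp, Trf, Tfr2 and Slc40a1 per 1000 Alb UMIs (log axis) in each class and library, with exact Poisson 95% intervals. Trf stays within 138 to 178 in library 1 and 180 to 218 in library 2, whereas Slc40a1 reaches 314 and 230 in Kupffer-like cells and about 1 in T-like cells (1.23 and 1.16).

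Slc40a1, which encodes ferroportin, was at 2541 CPM (2483 to 2600) and 2504 CPM (2453 to 2556) in Kupffer-like cells. The ratio was 0.985 (0.956 to 1.02), so the libraries did not differ beyond counting error. The level was 48.6 and 46.8 times that of deep hepatocyte-like cells, at 52.3 and 53.5 CPM. Kupffer-like cells made up 2.73% and 8.36% of kept cells and held 77.9% and 85.5% of all Slc40a1 UMIs. A UMI was found in 91.2% and 93.9% of them, and in 82.4% and 84.8% after thinning, whereas T-like cells were at 11.9 and 12 CPM. Deep hepatocyte-like cells held 1.40 and 1.31 Slc40a1 UMIs per 1000 Alb UMIs and T-like cells 1.23 and 1.16, intervals that overlapped.

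Other classes carried less Slc40a1. Neutrophil-like cells were at 388 and 319 CPM, and stellate-like cells at 194 and 138 CPM. The endothelial-like class had 172 CPM (142 to 207) and 123 CPM (97.8 to 153), and its interval overlapped that of stellate-like cells in both libraries. Neutrophil-like cells carried 11 of 12 Kupffer markers in both libraries, summing to 275 and 418 CPM, and those with no UMI of such a marker (58 and 16 cells) were at 356 and 561 CPM of Slc40a1. The endothelial-like cells carried all 14 of their own markers and 12 and 11 of the 12 Kupffer markers, the latter summing to 138 and 153 CPM, against 21282 and 21840 CPM in Kupffer-like cells, and the 78 and 94 cells without such UMIs were at 151 and 101 CPM of Slc40a1. Erythroid-like cells were at 31.4 and 87.7 CPM, a ratio of 2.80, and Slc40a1 and Hamp2 were the 2 of 7 members called higher in library 2 there, with 7.75% of all genes higher and 6.92% lower. Kupffer markers moved with it, at 246 CPM (12 of 12) in library 1 and 893 CPM (11 of 12) in library 2, and Cd163 and Hmox1, both macrophage genes, were at 7.13 and 25 and at 5.70 and 28.6 CPM. In the 243 and 93 erythroid-like cells with no UMI of a Kupffer marker, Slc40a1 was at 12.7 and 9.28 CPM.

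Fth1 and Ftl1 encode the heavy and light chains of ferritin, the iron store. Fth1 was at 6221 CPM (6181 to 6261) and 6926 CPM (6868 to 6984) in deep hepatocyte-like cells, with a ratio of 1.11, and at 3544 and 4134 CPM in Kupffer-like cells, with a ratio of 1.17. The Siglech-led class (4738 and 5992 CPM) and neutrophil-like cells (5502 and 4921 CPM) were above Kupffer-like cells, and endothelial-like cells were at 1668 and 1713 CPM. Ftl1 was at 2931 and 3042 CPM in deep hepatocyte-like cells, at 2359 and 2542 CPM in Kupffer-like cells, and at 963 and 797 CPM in endothelial-like cells. Both chains had UMIs in every class, with T-like cells at 1897 and 2035 CPM for Fth1 and 674 and 552 CPM for Ftl1. Per 1000 Alb UMIs, T-like Ftl1 (69.6 and 53.2, against 78.5 and 74.3 in deep hepatocyte-like cells) and endothelial-like Fth1 (164 and 134) did not exceed hepatocytes. T-like Fth1 did (196 in both libraries, against 167 and 169), as did endothelial-like Ftl1 in library 1 (94.5) but not in library 2 (62.3). Fth1 was at 437 and 380 in Kupffer-like cells and 167 and 169 in deep hepatocyte-like cells, so the Kupffer-like ratio was above that of hepatocytes.

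The light chain made up 32.0% and 30.5% of ferritin UMIs in deep hepatocyte-like cells, 40.0% and 38.1% in Kupffer-like cells, 39.7% and 38.4% in erythroid-like cells, and 26.2% and 21.3% in T-like cells. The order of Kupffer-like over hepatocyte-like over T-like was the same in both libraries. Over deep hepatocyte-like cells the chains had a Pearson correlation of 0.826 (n = 662) and 0.776 (n = 552), a description of cells that share a library and of genes that share the cells' depth. Ferritin has many processed copies in the genome, and Gm10252 and Gm22133 overlap Ftl1, so both genes' counts are uncertain to that degree. In the shallow droplets Ftl1 was at 5248 and 3570 CPM, above the deep cells in both libraries.

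Deep hepatocyte-like cells were ordered by pericentral against periportal marker UMIs and split into 3 equal ranges, a description along a score and not a set of types. Of the markers in the score, pericentral Cyp2e1 was at 132, 217 and 699 CPM in library 1 and at 129, 260 and 721 CPM in library 2. Periportal Cyp2f2 was at 2048, 2055 and 1568 CPM and at 1295, 1159 and 912 CPM. In library 1 it did not separate the most periportal range from the middle one. Hamp was at 1922, 1791 and 1657 CPM from the most periportal to the most pericentral range in library 1 and at 1531, 1419 and 1241 CPM in library 2. Trf followed the same order, at 5953, 5737 and 5068 CPM and at 9321, 8408 and 6382 CPM. Both were lowest in the pericentral range in both libraries. Hamp2 had no such order, at 76.5, 54.3 and 110 CPM and at 326, 245 and 271 CPM. Median depth moved with the score, at 28124, 25726 and 15071 UMIs and at 16880, 12501 and 8596 UMIs, and its part in the order was not tested.

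**Figure D4:**
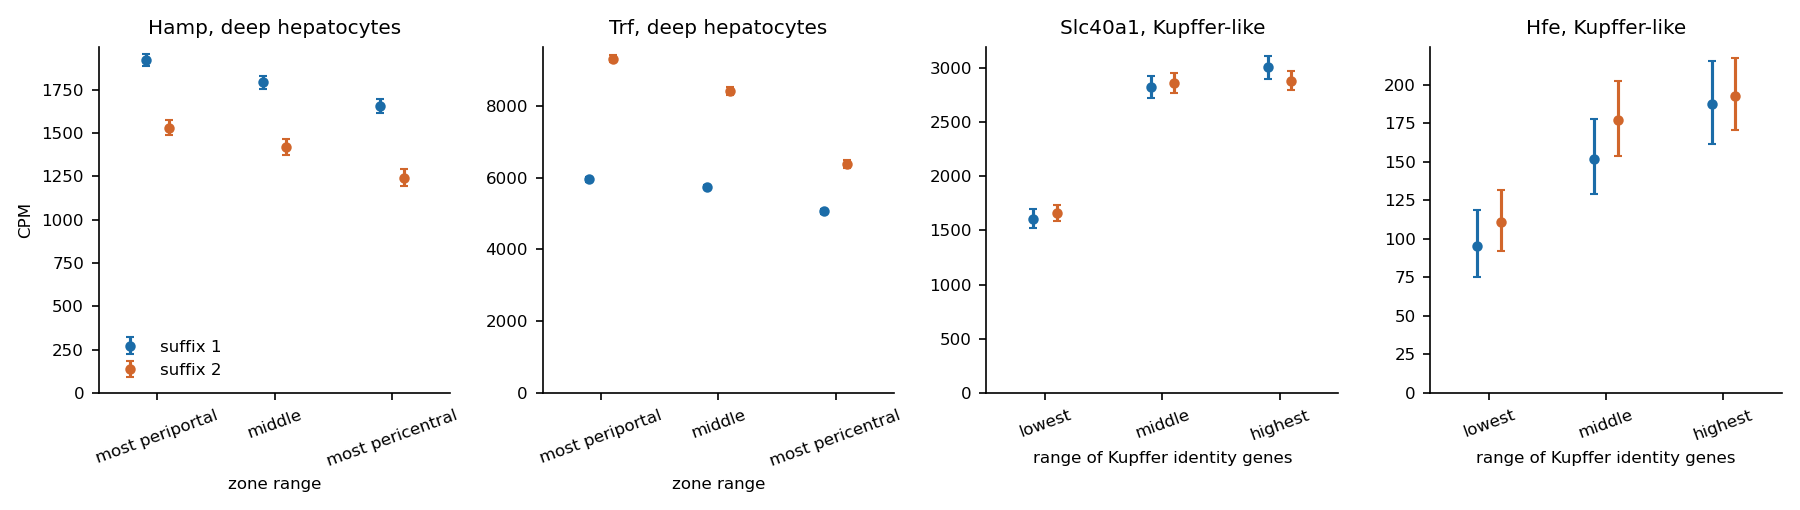
Levels (CPM, exact Poisson 95% interval) of Hamp and Trf over 3 ranges of the zonation score in deep hepatocyte-like cells, and of Slc40a1 and Hfe over 3 ranges of Kupffer identity in Kupffer-like cells. Hamp falls from 1922 to 1657 and from 1531 to 1241 CPM toward the pericentral range, and Slc40a1 rises from 1609 to 3005 and from 1661 to 2881 CPM with identity.

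Kupffer-like cells were likewise split by the UMI share of Clec4f, Vsig4, Cd5l, Timd4, Marco and Folr2. From the lowest to the highest range, Slc40a1 was at 1609, 2821 and 3005 CPM in library 1 and at 1661, 2859 and 2881 CPM in library 2. Hfe went the same way, at 95.3, 152 and 187 CPM and at 111, 177 and 193 CPM. Of the ferritin chains, Ftl1 also did, at 2150, 2381 and 2502 CPM and at 2303, 2444 and 2822 CPM, whereas Fth1 did not, at 3620, 3364 and 3660 CPM and at 4335, 3834 and 4232 CPM. Trf had the reverse order, at 1625, 1398 and 1344 CPM and at 3215, 2071 and 1866 CPM. Median depth moved along, at 6925, 9316 and 10310 UMIs and at 5085, 6832 and 7774 UMIs, and its part was not tested.

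Genes with a pattern over 12 classes most like that of a member were sought among 6858 genes, with Pearson's r of log2(CPM + 10) in each library as the measure. Those most like Hamp were Apoc3 (0.992 and 0.990), Tmem205 (0.987 and 0.988) and Mup20 (0.987 and 0.991). Those most like Slc40a1 were Wdfy3 (0.947 and 0.930), Actn1 (0.906 and 0.899) and Hmox1 (0.888 and 0.902). Those most like Bmp6 were Stox2 (0.953 and 0.978), Kdr (0.948 and 0.956) and Cd300lg (0.938 and 0.969). Hmox1 encodes heme oxygenase 1, which frees iron from heme, Kdr is the VEGF receptor of endothelium, and Kdr was itself an endothelial marker. The classes share a library and its free RNA.

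Of 20 genes of hepcidin control other than the members, 16 reached 20 CPM in a class of the rule. Endothelial-like cells were the highest for 11 of them in both libraries, among them Bmp2 (1049 and 817 CPM, against 1.8 and 1.9 CPM in deep hepatocyte-like cells), the receptor gene Bmpr2 (782 and 766 CPM) and the inhibitory SMAD gene Smad6 (241 and 221 CPM). Of all genes at this level, 40.2% and 41.4% were highest in endothelial-like cells. Deep hepatocyte-like cells were the highest for 3, against 22.7% and 23.6% of all genes. These were Tmprss6 (167 and 162 CPM), whose protease lowers hepcidin, Hjv (26.8 and 28 CPM), the BMP co-receptor hemojuvelin, and Furin (115 and 99.3 CPM), the convertase that processes pro-hepcidin. Kupffer-like cells were the highest for Bmpr1a and for Il6ra (239 and 248 CPM). Erfe, the erythroid hormone that lowers hepcidin, had 0 UMIs in every class, which allows up to 2.14 and 5.37 CPM in erythroid-like cells (3 UMIs of the total). Between the libraries, 0 of 8 genes tested in deep hepatocyte-like cells passed 2-fold, against 2.24% higher and 2.26% lower of all genes.

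**Figure D5:**
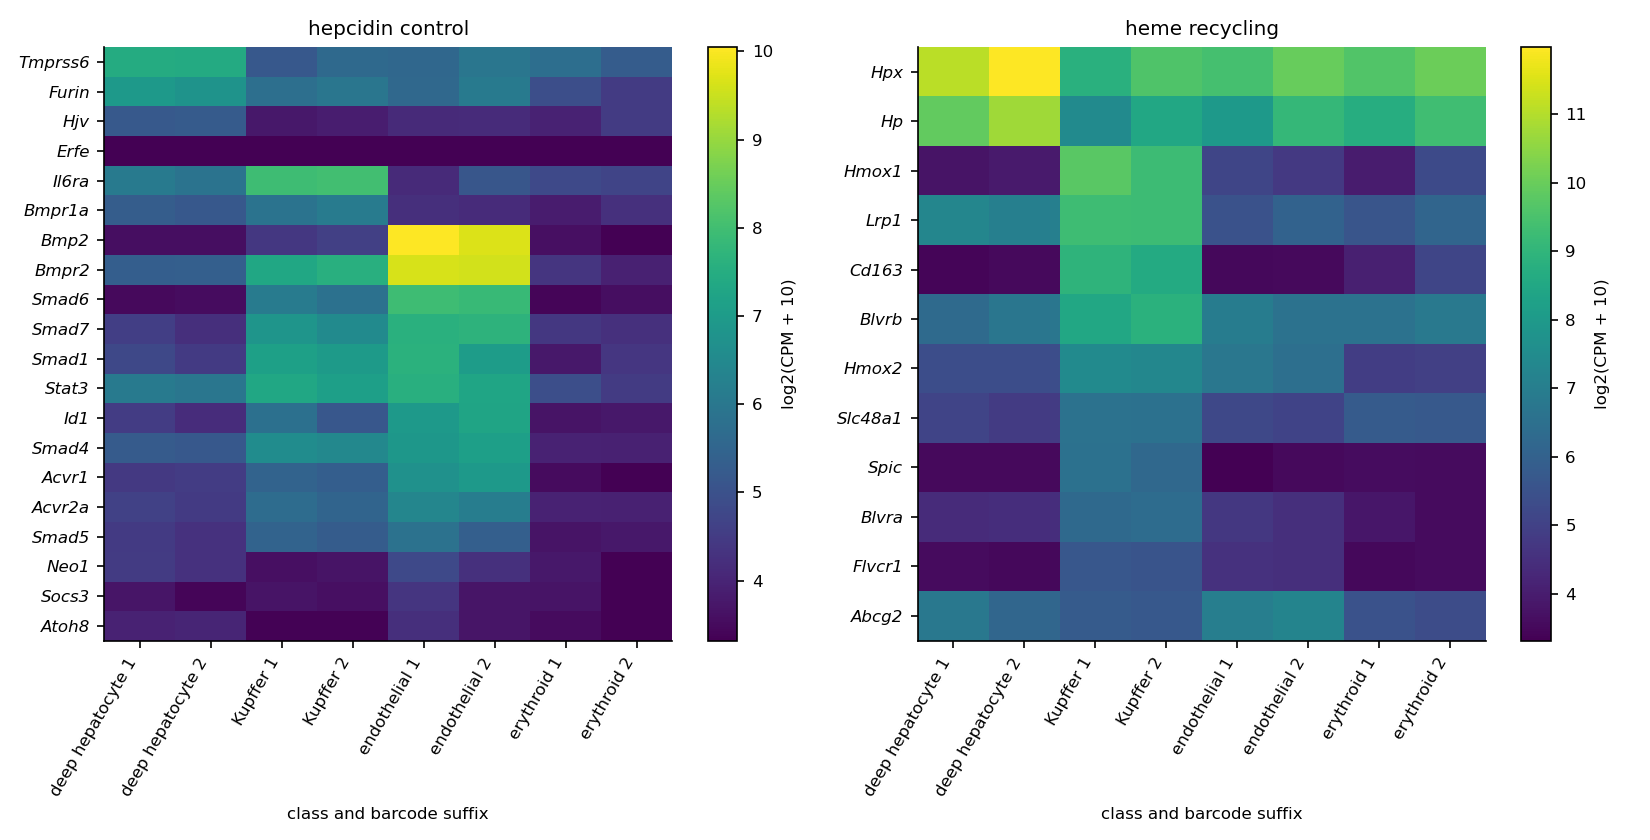
Heat maps of log2(CPM + 10) for the genes of hepcidin control and of heme recycling in the cell classes of each library. Bmp2 is highest in endothelial-like cells (1049 and 817 CPM), and 9 of 12 heme recycling genes are highest in Kupffer-like cells.

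Of 12 genes of heme recycling, which returns red-cell iron, 9 were highest in Kupffer-like cells in both libraries, where 36.4% and 34.2% of all genes at 20 CPM or more were highest. Hmox1 was at 857 and 607 CPM there, Cd163, the haemoglobin scavenger receptor, at 479 and 378 CPM, Blvrb, a biliverdin reductase, at 358 and 453 CPM, and Spic, a factor of iron-recycling macrophages, at 84.7 and 66.5 CPM. Hmox1 was the lower in library 2 at a ratio of 0.709 (0.669 to 0.751), whereas Slc40a1 in the same cells was not. The scavengers that hepatocytes secrete, hemopexin (Hpx) and haptoglobin (Hp), were highest in deep hepatocyte-like cells, at 2153 and 4019 CPM and at 937 and 1702 CPM. Both were the higher in library 2, at ratios of 1.87 and 1.82, short of 2-fold, so 0 of 7 genes tested passed there (all genes 2.24% and 2.26%). Hp did pass in Kupffer-like cells (165 and 352 CPM, 1 of 12 tested, all genes 0.686%) and in endothelial-like cells (246 and 530 CPM, 1 of 8, 2.54%). T-like cells, which should lack Hp, were at 295 and 520 CPM, above the Kupffer-like values in both libraries. The endothelial-like values were below the T-like value in library 1 and above it in library 2. The share of free hepatocyte RNA in the values of those classes was not tested.

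Of 18 further genes of iron uptake, storage and export, 10 reached 20 CPM in a class of the rule. Kupffer-like cells were the highest for 5 in library 1 and 2 in library 2 (all genes 36.4% and 34.2%). Endothelial-like cells were the highest for 1 and 5 (40.2% and 41.4%), and deep hepatocyte-like cells for 4 and 3 (22.7% and 23.6%). Ireb2, Pcbp1 and Pcbp2 were highest in Kupffer-like cells of library 1 and in endothelial-like cells of library 2. Cp, the plasma ferroxidase ceruloplasmin, was at 526 and 621 CPM in deep hepatocyte-like cells, and Slc39a14, an importer of iron not bound to transferrin, at 171 and 98.1 CPM. Slc39a8, a related importer, was highest in endothelial-like cells (134 and 125 CPM), and Ncoa4, the receptor that delivers ferritin to lysosomes, in Kupffer-like cells (128 and 127 CPM). In deep hepatocyte-like cells 0 of 8 tested passed 2-fold between the libraries, against 2.24% higher and 2.26% lower of all genes. Of 16 genes of heme synthesis and mitochondrial iron, 13 and 12 reached 20 CPM, and erythroid-like cells were the highest for 3, against 0.748% and 0.841% of all genes: Alas2, the erythroid first enzyme of heme synthesis (889 and 875 CPM), Fech (140 and 96.6 CPM) and Slc25a37, the mitochondrial iron importer (125 and 98.4 CPM). Over totals without haemoglobin genes the erythroid-like count was 6 and 7, against 10.1% and 9.48% of all genes. Over the totals with them, deep hepatocyte-like cells were the highest for 8 and 7 genes of this list, against 22.7% and 23.6% of all genes.

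Among 11 heme synthesis genes tested in deep hepatocyte-like cells, 1 was 2-fold or more higher and 1 lower in library 2, against 2.24% and 2.26% of all genes. Alas1, the first enzyme of heme synthesis outside red cells, was at 273 and 132 CPM (ratio 0.485), and its level outside hepatocytes moved alike, at 75.3 and 32.7 CPM in Kupffer-like, 95 and 47.8 CPM in endothelial-like and 58.0 and 21.0 CPM in T-like cells. The share of free hepatocyte RNA in those values was not tested. Alas2 was at 16.3 and 63.5 CPM (ratio 3.89) in deep hepatocyte-like cells. Erythroid markers went the other way in those cells, summing to 215 CPM (8 of 13 detected) in library 1 and 108 CPM (7 of 13) in library 2. The median log2 ratio of library 2 to library 1 in deep hepatocyte-like cells was 0.10 for the 8 members tested and -0.02 for all genes.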

How the data were processed

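Droplet single-cell RNA-seq was analysed from 1 knockout and 1 wild-type liver sample. The authors deposited 1 matrix of UMI counts for both, and the submitters' processing notes name Cell Ranger 7.1.0, STAR 2.7.2a, bcl2fastq 2.20.0 and build mm10. The sources used here do not say whether the libraries were scaled to equal depth. No columns of other series were present.

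Cells needed at least 500 UMIs, 200 genes and at most 25% mitochondrial UMIs. A class needed at least 3 of its markers, 0.5% of UMIs (hepatocytes 5%, with other lists under 0.25%) and 3 times any other list. These limits were set after marker shares were seen. No doublet caller was run, and cells holding 2 lists' markers stayed unassigned with the rest (7.35% and 10.4%). The few cholangiocyte-like cells (3 per library) were left out. UMIs were summed per class and library and given as CPM. No test was run, since neither library could be tied to a label and each genotype had 1 sample. A fold of 2 with at least 20 CPM in either class, 3 UMIs added to both sums, was the mark of size. Python 3.11.15, numpy 2.4.6, scipy 1.17.1 and pandas 2.3.3 were used. The fold calls between libraries and the coverage of the Poisson interval were tested on simulated data, and the other steps were not. Leiden clusters (scanpy 1.11.5, igraph 0.11.9), built without the members among the variable genes, served as an alternative, besides other cell limits, gates, totals and subtraction of free RNA.

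Members, gene lists and markers were chosen with earlier results of these data known. All members are named. Of pathway lists, genes highest in a class of the rule or past 2-fold are named, up to about 20, and for Hamp, Slc40a1 and Bmp6 the 3 genes most alike over classes, by the lower r of the libraries, among genes of at least 50 CPM.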

Additional observations from a re-analysis of the deposited data

Results flagged for a closer look

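Droplets over the mitochondrial limit of 25% were used in none of the comparisons above, yet held UMIs of all 10 members at more than the 3 UMIs that an observed 0 would allow (0.162 CPM in library 1 and 0.114 CPM in library 2). There were 5675 such droplets in library 1, with a median of 1717 UMIs, and 8886 in library 2, with a median of 2005 UMIs. Hamp was at 743 and 672 CPM in them, Hamp2 at 40.0 and 126 CPM, and Trf at 4309 and 5625 CPM. Tfr2 was at 105 and 109 CPM, Fth1 at 1787 and 1408 CPM, and Ftl1 at 982 and 659 CPM. Slc40a1 was at 57.9 and 40.6 CPM, Hfe at 13.9 and 15.5 CPM, Tfrc at 9.30 and 11.9 CPM, and Bmp6 at 1.68 and 1.89 CPM. Hamp2 was the higher in library 2 here as in the kept cells. The totals include mitochondrial UMIs. Over totals without them, Hamp was at 1693 and 1548 CPM, Hamp2 at 91.3 and 290.3 CPM, Trf at 9819 and 12960 CPM, Slc40a1 at 132 and 93.5 CPM and Fth1 at 4071 and 3245 CPM.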

How the results depend on the processing

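Of the recomputed values of the main results, 45 stayed within the counting interval (counts of genes within 1.5 times) and 37 moved beyond it. Hamp in hepatocytes of library 1 (1806 CPM) became 1688 CPM with a mitochondrial limit of 50%, 1485 without a limit, 2067 with the marker gate doubled, 1705 as a mean over cells, 2147 over a total without mitochondrial genes, 1457 after subtracting the T-like level, 1842 with hepatocytes of any depth and 1838 with those of at least 10000 UMIs. In library 2 (1418 CPM) it became 1328, 952, 1579, 1665 (total without mitochondrial genes), 1119 (T-like level subtracted) and 1564 (any depth) in the same order. Slc40a1 in Kupffer-like cells of library 1 (2541 CPM) became 2429 and 2390 under these mitochondrial limits, 2665 with the gate doubled, 2365 as a mean over cells and 2717 without mitochondrial genes, and in library 2 (2504 CPM) 2446, 2421, 2657 and 2694, with 2564 in Leiden clusters. The Bmp6 level (CPM) in endothelial-like cells kept within its interval under every alternative run. Tfrc in erythroid-like cells became -10.8 and -7.87 CPM after subtracting the T-like level, and 11.6 and 20.9 CPM over a total without haemoglobin genes. Without thinning, shares with a UMI were 98.2% and 98.6% for Hamp, 91.2% and 93.9% for Slc40a1 and 55.6% and 53.9% for Bmp6. The cause of these moves was not tested beyond what each setting removes. Over that total, members 2-fold or more lower in erythroid-like than in deep hepatocyte-like cells went from 6 to 0 in both libraries, and those higher from 0 to 2 in library 2. The total without haemoglobin genes, the erythroid-like cells without Kupffer-marker UMIs (12.7 and 9.28 CPM of Slc40a1), the same for neutrophil-like, stellate-like and endothelial-like cells, and the Hamp2 share without the 10% of cells richest in it (0.738% and 7.70%, lower by construction) were chosen after seeing the data.

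No paired analysis was possible because each genotype has 1 sample and no label ties either library to one, and leaving out a replicate was not possible. Library 2 lost more droplets to the mitochondrial limit. Tfrc and Hfe in erythroid-like cells rest on 4 to 12 UMIs. Hamp, Hamp2, Trf and Tfr2 were found in every class, and no single class gives a common floor for them.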
